A study of Mus musculus with 3 samples.

Results

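The comparison described here is between 2 arrays of long-term haematopoietic stem cells (LT-HSCs): one from mice given 8 Gy of total body irradiation (TBI) as FLASH, and one from non-irradiated mice. Its members are the 23185 of 25206 probe sets that carry a single gene symbol in the platform's annotation, and the measure is the deposited log2 value on the FLASH array minus that on the non-irradiated array. The animals in both groups were female C57Bl/6 mice aged 8 to 10 weeks, and each sample was 10000 LT-HSCs taken from bone marrow. The labels place the isolation at 15 days after TBI, and the non-irradiated sample carries the same time label. One more array held LT-HSCs after 8 Gy at CDR, an abbreviation that the labels do not spell out. Its values are set beside those of the FLASH array where they help to place them. Both differences use the same non-irradiated array, so they are not independent of each other. The sources used here do not state how many mice went into each sample or how the cells were gated. Each group had 1 array, so nothing could be tested against replicate spread, and "higher" and "lower" are readings of single arrays.

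LT-HSCs are rare marrow cells that are mostly quiescent, renew themselves, and give rise to all blood lineages through multipotent and lineage-restricted progenitors. Total body irradiation kills cycling marrow progenitors, and the stem cells that survive it divide to rebuild the blood. FLASH is the delivery of a radiation dose at an ultra-high dose rate, studied because normal tissues can tolerate it better than the same dose given slowly. The isolation time falls in the period in which irradiated marrow regenerates.

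A set of 1364 odorant, pheromone and trace amine receptor genes, which blood cells are not known to use, gave each array a detection level. It was the 95th percentile of their values, at 4.15, 4.16 and 4.22 on the non-irradiated, CDR and FLASH arrays, the order in which 3 values of a gene are given throughout. Detected genes exceeded it on the brighter of the arrays compared. A gene that was dimmer than this on the other array has its fold written as "at least N-fold", computed from the level itself. Other values given as "higher by" or "differed by" are log2 differences from the non-irradiated array. Of the markers used in textbook LT-HSC gates, Kit, the stem cell factor receptor, read 10.25, 9.78 and 9.38 on the non-irradiated, CDR and FLASH arrays, and Slamf1, the marker CD150, read 6.13, 6.11 and 6.24. Genes that such gates select against were also well above the detection level: Cd48 read 9.70, 10.18 and 10.05, and Flt3, a cytokine receptor of multipotent progenitors, 8.69, 7.63 and 7.22. Mpo, the myeloperoxidase of granulocyte precursors, read 12.36 on the non-irradiated array and was higher by 0.09 on the FLASH array. The label LT-HSC is therefore used as the submitters gave it. In bulk RNA, fewer cells of a type and less RNA per cell cannot be told apart.

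Most genes read alike on the FLASH and non-irradiated arrays, and differences past 2-fold were more often downward than upward. Of 13288 detected genes, 155 (1.17%) were higher by 2-fold or more and 233 (1.75%) lower by 2-fold or more on the FLASH array, and 184 belonged to antibody or T cell receptor loci and are described at the end. Of the other 13104, 115 were higher by 2-fold or more on the FLASH array, which is 0.878%, and 189 were lower by 2-fold or more, which is 1.44%. These counts use deposited values, so they include genes whose fold is written as a smaller lower bound, 13 among the higher and 15 among the lower. With such genes taken at their bound, 102 were higher and 174 lower. Past 4-fold, 12 were higher and 10 lower by deposited values, and 9 and 7 with dim genes at their bound. The median difference was 0.00, the 5th and 95th percentiles were -0.58 and 0.47, and 4402 genes (33.6%) held the same deposited value on both arrays. Such ties were most frequent among dim genes, at 52.9% for a mean level under 5 and 13.9% for a mean level above 10. Genes higher by 2-fold or more had a median level of 5.52 on the non-irradiated array and 6.85 on the FLASH array. For those lower by 2-fold or more the medians were 6.97 and 5.61. Among the 1364 receptor genes the differences had an SD of 0.207, and 1 was higher and 3 lower by 2-fold or more by deposited value.

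**Figure D1:**
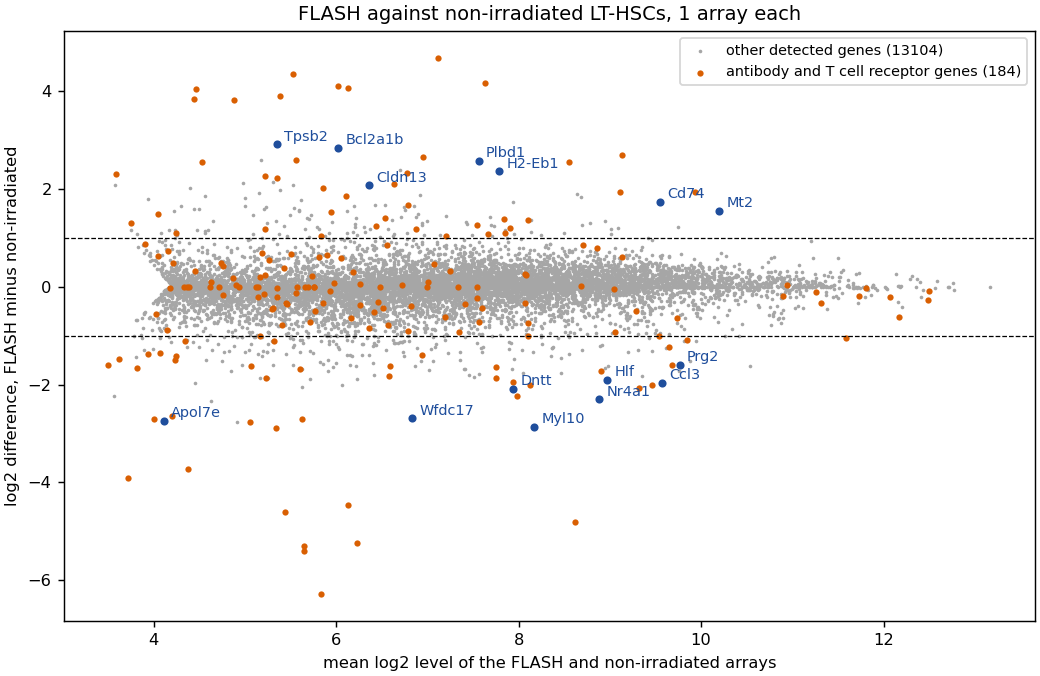
Log2 difference between the FLASH and non-irradiated arrays (y axis) against the mean log2 level of both (x axis) for 13288 detected genes, 1 array each. Grey points are 13104 genes outside antigen receptor loci, orange points the 184 antibody and T cell receptor genes, blue points named examples, and dashed lines mark 2-fold. The orange points reach from -6.28 to 4.68, while the named others lie between -2.86 (Myl10) and 2.92 (Tpsb2).

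The genes by which stem cells are recognised were mostly lower on the FLASH array. Of 38 detected members of a stem cell identity list (43 measured), 10 were lower by 2-fold or more, 1 was higher by 2-fold or more and 27 lay within 2-fold. The median difference was -0.45 against 0.00 over all genes outside antigen receptor loci, and 28 of the 38 read lower by any amount. Over all those genes, 1.44% were lower and 0.878% higher by 2-fold or more. On the CDR array the list median was -0.65, with 14 of 38 detected members lower by that much. Hlf, a transcription factor that maintains stem cells, read 9.92, 7.92 and 8.02 on the non-irradiated, CDR and FLASH arrays, a difference of -1.90 for FLASH. Both irradiated arrays were low for it and lay close together. Mmrn1, which encodes the platelet protein multimerin and marks stem cells biased to the platelet lineage, read 7.17, 5.22 and 5.28 on the same arrays. Trpc6, a cation channel, read 7.31, 5.04 and 5.51, and Gprc5b, an orphan receptor, 7.07, 5.13 and 5.06. Pdzk1ip1, a small membrane protein, differed by -1.77 on FLASH. Eya2, a transcription cofactor, differed by -1.52, Myct1 by -1.30, and Txnip, an inhibitor of thioredoxin, by -1.11. Gprasp2 lay under the detection level on the FLASH array and was at least 1.89-fold lower. Clca3a1, a chloride channel accessory protein, was the member in the other direction, at 5.52, 6.21 and 6.92 on the non-irradiated, CDR and FLASH arrays.

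Surface markers differed less than the wider identity list. Of 17 detected members, Flt3 was lower by 2-fold or more, at -1.47, and the other 16 lay within 2-fold, with a median of -0.37 over all 17. By any amount, 14 read lower and 3 higher. Procr, the endothelial protein C receptor that marks LT-HSCs, read 7.15, 5.42 and 6.33 on the non-irradiated, CDR and FLASH arrays. The FLASH array lay between the others for this gene. The tumour necrosis factor receptor family member Cd27 differed by -0.97, Kit by -0.87 and Cd34, the sialomucin of progenitors, by -0.44. Cd48 was higher by 0.34 and Slamf1 by 0.11.

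Transcription factors of blood formation, like most genes, differed by small amounts. Of 46 detected, 45 lay within 2-fold, with a median of -0.09. Past 2-fold, 0.878% of all genes outside antigen receptor loci were higher and 1.44% lower. Lying within 2-fold thus did not set these factors, or the cytokine receptors below, apart. Klf1, the master regulator of red cell genes, was the member past 2-fold, at 6.16, 7.13 and 7.59 on the non-irradiated, CDR and FLASH arrays. Gata1, its partner in the red cell and platelet lineages, read 8.11, 8.48 and 8.75. The homeobox gene Meis1 differed by -0.84 on FLASH, Sox4 by -0.74, Klf2 by -0.64, Gata2 by -0.61 and Mecom, a regulator of stem cell quiescence, by -0.58. By any amount, 29 of the 46 read lower, 10 higher and 7 the same. Besides Klf1 and Gata1, those higher included Id2 (0.80), Nfil3 (0.53) and Gfi1 (0.25). Among cytokine receptors, Epor, the erythropoietin receptor, was higher by 0.83 and Csf2rb by 0.55. The receptor of macrophage colony-stimulating factor, Csf1r, differed by -0.78, while its CDR value of 6.59 lay above the 6.36 of the non-irradiated array. The 33 detected receptors had a median of -0.02, with Flt3 the 1 member past 2-fold.

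Immediate early genes, which are switched on within minutes by growth factors, stress or tissue handling, were lower on the FLASH array in 26 of 40 detected members and lower by 2-fold or more in 6, with 0 higher by 2-fold or more and a median of -0.39. Over all genes outside antigen receptor loci, 32.7% were lower by any amount on FLASH and 1.44% by 2-fold or more. On the CDR array the list median was -0.57, with 8 of 40 detected members lower by 2-fold or more. Nr4a1, an orphan nuclear receptor, read 10.03, 8.07 and 7.73 on the non-irradiated, CDR and FLASH arrays, the lowest value on FLASH. The zinc finger factor Egr1 differed by -1.52, Ppp1r15a by -1.18, the phosphatase gene Dusp2 by -1.17, Ier2 by -1.10 and the antiproliferative gene Btg2 by -1.05. Not all members were low: Fosl1 was at least 1.72-fold higher and Atf3 was higher by 0.59.

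A pair of chemokine genes and a neighbour were low together. Ccl3 read 10.55, 8.78 and 8.59 on the non-irradiated, CDR and FLASH arrays, and Ccl4 read 10.62, 8.87 and 8.89. Wfdc17, a small whey acidic protein family gene, read 8.18, 6.44 and 5.48, a FLASH difference of -2.69. These genes are consecutive among the detected genes of chromosome 11 in the RefSeq gene order. Of 29 detected chemokine and chemokine receptor genes, Ccl3 and Ccl4 were lower by 2-fold or more, and Xcr1 and Ccl22, a dendritic cell chemokine that was at least 2.25-fold higher, were higher by 2-fold or more. The other 25 lay within 2-fold.

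Genes of the multipotent and lymphoid progenitor list were mostly lower. Of 28 detected members, 8 were lower by 2-fold or more, 0 higher by 2-fold or more and 20 within 2-fold, and the median was -0.42. Of all genes outside antigen receptor loci, 1.44% were lower and 0.878% higher by that much. The lowest member was Wfdc17 at -2.69, which the monocyte and macrophage list also holds, and Ltb is also in the stem cell identity list. Over all 31 measured members, dim ones included, the median was -0.19. On the CDR array the median over 28 detected members was -0.62, with 11 lower by 2-fold or more. Dntt, the template-independent polymerase of antigen receptor rearrangement, read 8.98, 6.30 and 6.90 on the non-irradiated, CDR and FLASH arrays. Ltb, lymphotoxin beta, read 8.25, 5.56 and 6.57, and the GTPase gene Gimap6 9.19, 7.14 and 7.73. For these 3 genes the FLASH array was low, and the CDR array was lower still. Gpr171 differed by -1.30 on FLASH, Gcnt2 by -1.24 and Mn1 by -1.10. Vpreb3 was higher by 0.82. Of 7 detected Gimap genes, Gimap6 and Gimap5 were lower by 2-fold or more, while Gimap3 and Gimap4 read higher by 0.55 and 0.49; members of this family resemble one another in sequence.

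Megakaryocyte and platelet genes were lower in 24 of 31 detected members, by 2-fold or more in 6 and higher by 2-fold or more in 0, with a median of -0.26. Besides Mmrn1 and Trpc6, which the stem cell list also holds, these were Gng11, Thbs1, Gp9 and Nrgn. Gng11, a G protein gamma subunit, read 8.43, 6.63 and 6.58 on the non-irradiated, CDR and FLASH arrays. Thbs1, thrombospondin, was at least 2.34-fold lower on FLASH, and Gp9, a subunit of the von Willebrand factor receptor, differed by -1.23. Gp5 and P2ry1 held identical values on the FLASH and non-irradiated arrays, and Selp, P-selectin, was higher by 0.18. On the CDR array the list median was -0.35, with 7 of 32 detected members lower by 2-fold or more. The FLASH shares over all genes outside antigen receptor loci were 32.7% lower by any amount and 1.44% lower by 2-fold or more.

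Erythroid genes were the lineage list with the most members past 2-fold. Of 39 detected (42 measured), 12 were higher by 2-fold or more on the FLASH array, 0 lower by 2-fold or more and 27 within 2-fold. The median was 0.64 (1.55-fold), against 0.00 over all genes outside antigen receptor loci. Of all those genes, 0.878% were higher and 1.44% lower by 2-fold or more on FLASH. On the CDR array the list median was 0.56, with 11 higher by 2-fold or more. There, 0.731% of all 13277 genes detected in that comparison outside antigen receptor loci were higher and 1.66% lower by that much. Ermap, an erythroblast membrane protein, read 7.07, 8.47 and 8.80 on the non-irradiated, CDR and FLASH arrays. Rhag, the Rh-associated membrane channel, read 5.70, 7.32 and 7.37, and its partner Rhd was higher by 1.64 on FLASH. Hbb-bs, a beta globin gene, read 5.58, 7.09 and 7.26. Cldn13, an erythroid claudin, read 5.32, 7.0 and 7.40, and Nxpe2 read 4.48, 6.46 and 6.57. Mt2, a metallothionein, was higher by 1.55, the ankyrin gene Ank1 by 1.54, the adducin gene Add2 by 1.29 and the carboxylesterase gene Ces2g by 1.38. The FLASH array was the brightest of the 3 for Ermap, Rhag, Hbb-bs, Cldn13 and Nxpe2. It lay above the CDR array by small amounts, from 0.05 for Rhag to 0.40 for Cldn13, and this was not tested. The members that read lower were led by Apoe at -0.64 and Gata2 at -0.61, both of which other lineages also express. Summed on the linear scale, the 42 measured erythroid genes had a ratio of 1.38 for FLASH over non-irradiated and 1.27 for CDR over non-irradiated. Without Mt2, the member with the largest linear difference, these ratios were 1.288 and 1.165.

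Iron and haem genes were higher by less. Of 30 detected, 20 read higher and 3 lower by any amount, 2 were higher by 2-fold or more, and the median was 0.23. Tfrc, the transferrin receptor, read 8.13, 9.31 and 9.44 on the non-irradiated, CDR and FLASH arrays, and Tspo2, an erythroid membrane protein, read 5.37, 6.95 and 7.02. Cpox, an enzyme of haem synthesis, was higher by 0.88 and Blvrb by 0.81, whereas Hmox1, which degrades haem, differed by -0.70. Outside the lists, Pklr, the pyruvate kinase of red cells and liver, read 5.98, 7.39 and 7.85 on the same arrays, and Atp1b2, a sodium pump subunit, 7.69, 9.21 and 9.59.

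**Figure D2:**
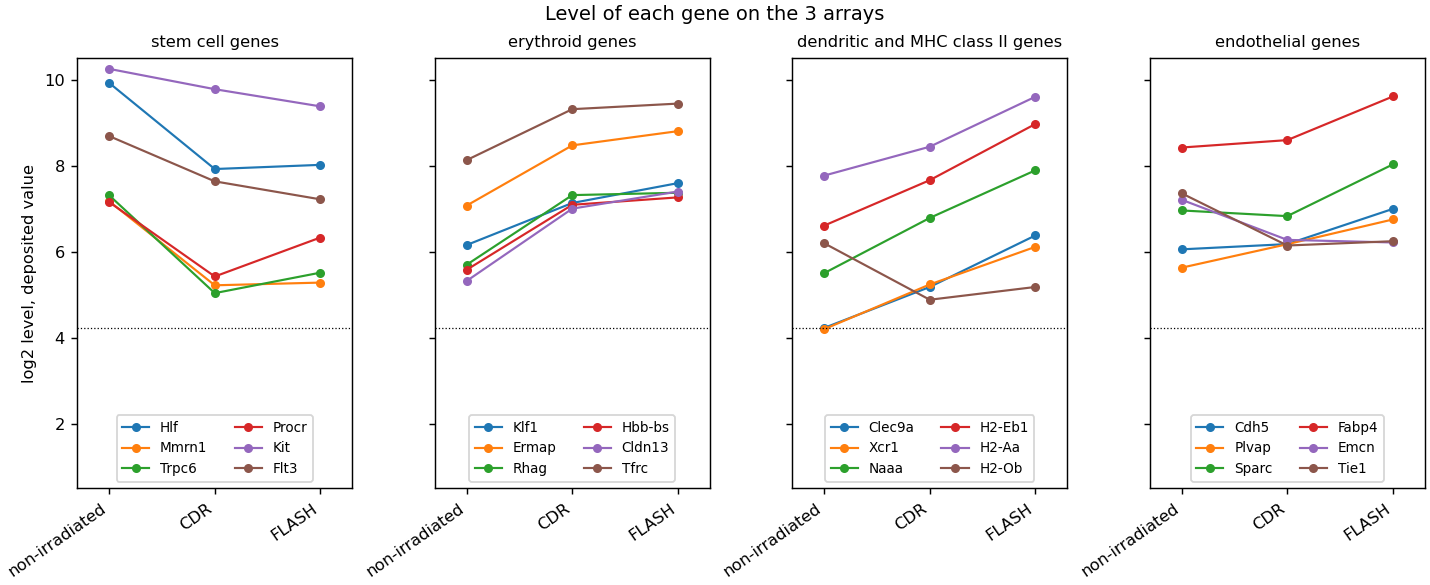
Deposited log2 level (y axis) of 24 genes on the non-irradiated, CDR and FLASH arrays (x axis), 1 array each, in 4 panels; the dotted line is the detection level of the FLASH array, 4.22, and lines join the values of a gene. Stem cell genes such as Hlf are low on both irradiated arrays, erythroid genes such as Ermap are high on both, and H2-Eb1, Clec9a and Xcr1 climb from the non-irradiated to the CDR to the FLASH array.

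The sequences just upstream of erythroid genes are shown because GATA factors act through a short motif there. Promoters came from RefSeq, build GRCm38.p6, and 10341 of the 13104 detected genes matched by Entrez gene identifier. GATA motifs (A or T, then GATA, then A or G) were searched on both strands in the 250 bases before each annotated start, with motifs chosen after list counts were known. Of 32 matched erythroid genes 18 (56.2%) held one, against 20.6% of all matched detected genes and 29.7% of the 27025 genes in the promoter table. Such a share, here and for the lists below, depends on which genes a list holds and not on their FLASH differences. Of matched genes 2-fold or more higher on FLASH, 26 of 84 (31.0%) held a GATA motif. Of those lower by that much, 37 of 140 (26.4%) did. The 120 bases before the start of Klf1 (chr8:84901862-84901981, plus strand), Ermap (chr4:119189996-119190115, minus strand) and Rhag (chr17:40811029-40811148, plus strand) each hold 1 match, in capitals, read 5′ to 3′ on the strand of the gene. A match is a run of letters and does not show that a factor is bound.
Klf1: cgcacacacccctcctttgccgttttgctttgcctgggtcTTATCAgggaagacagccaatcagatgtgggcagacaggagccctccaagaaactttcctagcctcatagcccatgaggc
Ermap: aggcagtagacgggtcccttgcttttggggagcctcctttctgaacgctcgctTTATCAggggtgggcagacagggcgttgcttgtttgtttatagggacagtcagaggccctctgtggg
Rhag: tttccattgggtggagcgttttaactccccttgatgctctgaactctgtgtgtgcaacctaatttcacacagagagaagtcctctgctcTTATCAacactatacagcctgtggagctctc

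Mitosis genes differed by small amounts in a single direction. Of 72 detected, 69 read higher on the FLASH array, 0 read lower and 3 were tied, against 33.7% higher and 32.7% lower by any amount over all genes outside antigen receptor loci. The median was 0.42 (1.34-fold), and 2 members were higher by 2-fold or more. Plk1, the kinase that drives entry into and passage through mitosis, read 8.47, 9.38 and 9.56 on the non-irradiated, CDR and FLASH arrays, and Depdc1a read 5.62, 6.33 and 6.62. The spindle checkpoint kinase Bub1 was higher by 0.92, the condensin subunit gene Ncapg by 0.92 and the kinetochore motor gene Cenpe by 0.83. Mki67, the proliferation marker, was higher by 0.36. The FLASH array was the brightest of the 3 for Plk1 and Depdc1a.

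DNA replication genes were also mostly higher, in 52 of 59 detected members, with 2 lower by any amount, a median of 0.17 and 3 higher by 2-fold or more. Ccne1, cyclin E1, which starts S phase, read 6.79, 7.88 and 8.08 on the non-irradiated, CDR and FLASH arrays. Rrm2, the inducible subunit of ribonucleotide reductase, read 8.48, 9.59 and 9.69, and Orc1, a subunit of the origin recognition complex, 6.10, 7.08 and 7.14. Both irradiated arrays were high for these 3 genes and differed little from each other. Pcna, the sliding clamp, and Tk1 held the same value on the FLASH and non-irradiated arrays. Among G1 cyclins, kinases and their inhibitors, 34 of 35 detected members lay within 2-fold. Cyclin D1, Ccnd1, was higher by 0.76, while Ccng2, a cyclin of arrested cells, differed by -0.91 and the inhibitor gene Cdkn1b by -0.35.

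Promoter motifs of cell cycle genes are shown for the same reason as above. TTTGAA, the core of the CHR element of mitotic promoters, was present on either strand in the 250 bases before the start in 24 of 62 matched mitosis genes (38.7%), against 12.8% of matched detected genes. An E2F motif (TTTCGCGC, TTTGGCGC, TTTCCCGC or TTTGGCGG) was present in 13 of 49 matched replication genes (26.5%), against 4.12%. TTTGAA lay before 14.3% of matched genes higher by 2-fold or more on FLASH and 11.4% of those lower. For the E2F motif these shares were 2.38% and 0.714%. The 120 bases before Depdc1a (chr3:159495313-159495432, plus strand) and Ncapg (chr5:45669805-45669924, plus strand) hold TTTGAA on one strand or the other, in capitals. Those before Orc1 (chr4:108579334-108579453, plus strand) hold an E2F match on the minus strand. The same length of sequence before Plk1, Ccne1 and Rrm2 held no match to the motif of its list, so the difference and the match did not always go together.
Depdc1a: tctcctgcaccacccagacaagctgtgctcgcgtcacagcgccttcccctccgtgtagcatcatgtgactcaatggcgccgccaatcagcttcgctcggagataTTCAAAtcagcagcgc
Ncapg: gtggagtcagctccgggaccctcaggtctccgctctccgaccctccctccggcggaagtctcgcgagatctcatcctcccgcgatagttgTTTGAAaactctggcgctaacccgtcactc
Orc1: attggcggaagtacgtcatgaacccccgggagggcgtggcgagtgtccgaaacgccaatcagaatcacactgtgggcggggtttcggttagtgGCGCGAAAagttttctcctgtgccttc

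Genes that build ribosomes and charge transfer RNAs read higher by small amounts. Of 58 detected ribosome biogenesis genes 54 read higher and 2 lower, with 0 past 2-fold and a median of 0.30. Pno1, a small-subunit assembly factor, read 7.64, 8.53 and 8.45 on the non-irradiated, CDR and FLASH arrays, and Mrto4, a large-subunit assembly factor, read 8.08, 8.66 and 8.87. Of 21 aminoacyl-tRNA synthetase genes 20 read higher and 0 lower, with a median of 0.39. The synthetase gene Hars led them at 0.74, followed by Cars at 0.73. Mitochondrial ribosomal protein genes, a family chosen after values were seen, read higher in 69 of 76 and lower in 1, with a median of 0.24. Oxidative phosphorylation genes read higher in 36 of 50, with a median of 0.10. A list of 14 housekeeping genes, used as a reference, had the same median of 0.10, with 12 of 14 higher, so a shift of that size did not set a list apart from them. The cytosolic ribosomal proteins, also chosen afterwards, had a median of 0.03 over 56 detected genes. Of these, 4 were higher and 0 lower by 2-fold or more, against 0.878% and 1.44% of all genes outside antigen receptor loci.

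Heat shock genes read higher in 31 of 37 detected members and lower in 3, with a median of 0.28. Hsph1, a large chaperone, read 7.26, 7.71 and 8.43 on the non-irradiated, CDR and FLASH arrays. Hspa1b, an inducible HSP70, read 3.44, 4.30 and 5.0, the first of these under the detection level, and was at least 1.80-fold higher on FLASH. Its near-identical copy Hspa1a was higher by 0.58, and probes may not separate the pair. Dnajb4 and Dnajb1 differed by -0.42 and -0.32. The heat shock motif (GAANNTTC or TTCNNGAA) lay in the 250 bases before the start in 11 of 32 matched members (34.4%), against 12.2% of matched detected genes. Among matched genes higher and lower by 2-fold or more on FLASH, the shares were 10.7% and 15.7%. The motif is in capitals in the 120 bases before Hspa1b (chr17:34959239-34959358, minus strand) and Hsph1 (chr5:149636337-149636456, minus strand, the first of its annotated starts), the 2 members past 2-fold by deposited values.
Hspa1b: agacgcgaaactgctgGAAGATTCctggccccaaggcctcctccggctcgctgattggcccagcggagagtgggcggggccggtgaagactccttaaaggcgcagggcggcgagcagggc
Hsph1: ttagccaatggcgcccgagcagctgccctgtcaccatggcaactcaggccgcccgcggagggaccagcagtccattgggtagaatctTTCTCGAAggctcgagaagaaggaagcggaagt

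Other stress and metabolic genes moved in both directions. Of 40 detected genes of the unfolded protein and ATF4 responses, Asns, asparagine synthetase, was higher by 2-fold or more at 1.10, and Ddit4, an inhibitor of mTORC1, and Vldlr were lower by 2-fold or more at -1.61 and -1.15. Ddit4 read 7.67, 6.56 and 6.06 on the non-irradiated, CDR and FLASH arrays. Glycolysis and hypoxia genes had a median of 0.00 over 36 detected members, with Ldhb, a lactate dehydrogenase subunit, at -1.85 and Aldoc, an aldolase, at -1.11. Ldhb read 8.68, 7.02 and 6.83 on the 3 arrays, low on both irradiated ones. The other lactate dehydrogenase subunit gene, Ldha, was higher by 0.25. All 38 detected cholesterol and fatty acid genes lay within 2-fold, as did most genes of the comparison. Of 40 detected antioxidant genes, Mt2 was higher by 2-fold or more and Txnip and Gsta4, a glutathione transferase at -1.02, were lower by 2-fold or more.

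Damage response genes had list medians of 0.00 at this time. The 64 detected DNA repair genes all lay within 2-fold, as most genes did, from Mgmt at -0.37 to Fanca at 0.56. By any amount, 32 of them read higher and 8 lower, against 33.7% and 32.7% of all genes outside antigen receptor loci. Targets of p53 had a median of 0.00 over 39 detected members, with 18 lower and 10 higher by any amount. Past 2-fold, 3 of the 39 were lower and 0 higher, against 1.44% and 0.878% of all genes outside antigen receptor loci. Cdkn1a, the p21 cell cycle inhibitor, read 9.34 on the non-irradiated array and differed by -0.18 on FLASH, Mdm2, the p53 ubiquitin ligase, by -0.06, and Ccng1 by 0.00. The 3 p53 targets lower by 2-fold or more were Ddit4, Plk2 at -1.09 and Btg2, and the immediate early list also holds Btg2. Gtse1, a mitotic gene in the list, was higher by 0.62.

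**Figure D3:**
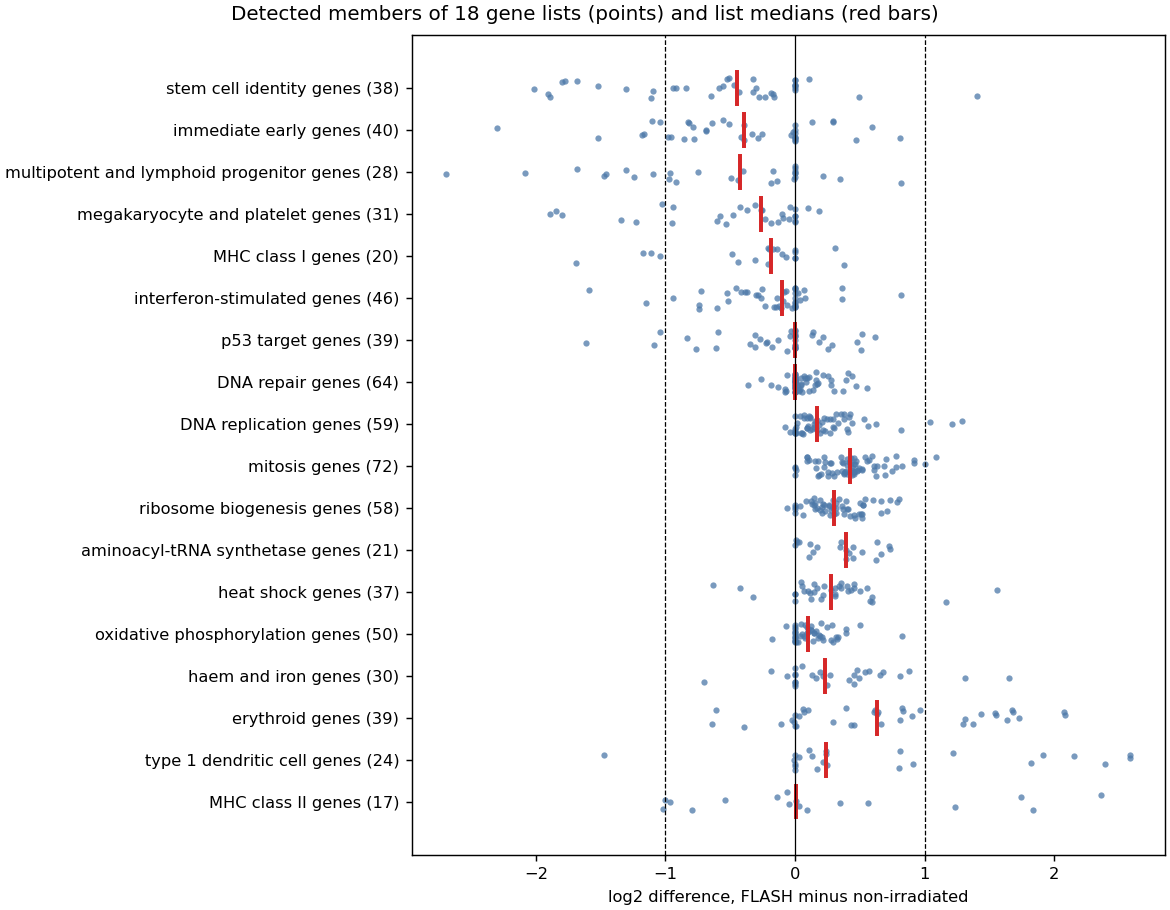
Log2 difference, FLASH minus non-irradiated (x axis), of every detected member (points) of 18 gene lists (y axis, number detected in brackets), with list medians as red bars and dashed lines at 2-fold; vertical positions within a list are jittered. The mitosis points lie at or to the right of 0 with a median of 0.42, the stem cell identity points mostly to the left with a median of -0.45, and the MHC class II points spread to both sides around 0.01.

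The BCL2 family held 1 of the largest differences of the comparison. Bcl2a1b, an anti-apoptotic family member, read 4.60, 5.98 and 7.44 on the non-irradiated, CDR and FLASH arrays, a FLASH difference of 2.84 (7.17-fold). Bcl2a1a read 4.41, 4.70 and 6.00. The FLASH array was the brightest for both. These genes are near copies: upstream of their annotated starts, 205 of 206 aligned bases (99.5%) were identical, and probe sets may not tell their transcripts apart. The remaining 16 detected family genes lay within 2-fold, from Bnip3l at -0.45 to Bid at 0.59, with Bcl2 at -0.27 and Mcl1 at -0.32.

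Genes of type 1 conventional dendritic cells, which take up dying cells and present their antigens to CD8 T cells, made up several of the top differences. Of 24 detected list members, 7 were higher by 2-fold or more on the FLASH array and Flt3 was lower by 2-fold or more, with 16 within 2-fold and a median of 0.24. Clec9a, the receptor for exposed actin of dead cells, read 4.23, 5.18 and 6.38 on the non-irradiated, CDR and FLASH arrays. Xcr1, the chemokine receptor that defines these cells, read 4.20, 5.24 and 6.11. Tlr3, the receptor for double-stranded RNA, read 4.09, 5.01 and 5.92 and was at least 3.40-fold higher on FLASH. Non-irradiated values of all 3 lay near the detection level, with the CDR array between the others. Plbd1, a phospholipase-like gene, read 6.27, 7.68 and 8.86, and Naaa, a lysosomal amidase, 5.50, 6.78 and 7.89. Ifi205, a member of the interferon-inducible p200 family, was at least 4.99-fold higher, and Cd36, a scavenger receptor, was higher by 1.22. Irf8 (7.83 on all 3 arrays) and Batf3 (4.62 on all 3), transcription factors required for these cells, held identical values. Such ties between the FLASH and non-irradiated arrays were common outside antigen receptor loci. They held for 26.9% of detected genes at mean levels of 7 to 8 and 52.9% of those under 5. Summed on the linear scale, the 25 measured members had a ratio of 1.30 for FLASH over non-irradiated and 1.10 for CDR over non-irradiated. Without Plbd1, the member with the largest linear difference, these ratios were 1.191 and 1.065. On the non-irradiated array 20 of the 25 lay above the detection level, and 24 did on FLASH. Whether such cells were in the sort was not tested.

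MHC class II genes read both higher and lower. These molecules present peptides to CD4 T cells, and their partners load the peptide. Of 17 detected genes, 4 were higher by 2-fold or more, 2 lower by 2-fold or more and 11 within 2-fold, with a median of 0.01. The higher ones were the chains H2-Eb1, H2-Aa and H2-Ab1 and the invariant chain Cd74. H2-Eb1 read 6.61, 7.66 and 8.97 on the non-irradiated, CDR and FLASH arrays, H2-Aa 7.77, 8.44 and 9.60, H2-Ab1 9.13, 9.45 and 10.37, and Cd74 8.68, 9.15 and 10.43. For each of the 4 the FLASH array was the brightest and the CDR array lay between. The peptide-loading modulators H2-Ob and H2-Oa differed by -1.02 and -0.96, the loading chains H2-DMb1 and H2-DMa by -0.80 and -0.54, and Rfx5, a factor that drives class II promoters, by -1.0. Other loading genes read higher, with the loading chain H2-DMb2 at 0.34 and the thiol reductase gene Ifi30 at 0.56. By any amount, 9 of the 17 read higher and 8 lower. H2-Ob, H2-Ab1, H2-Aa and H2-Eb1 are consecutive among detected genes on chromosome 17, so the change of direction falls inside this stretch.

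Class II promoters carry a conserved set of boxes of which the CCAAT box is the last before the start, and it is shown for the chains that read higher. CCAAT lay on either strand in the 250 bases before the start in 11 of 13 matched class II genes (84.6%), against 40.0% of matched detected genes. It was present before H2-Ob, H2-Oa, H2-DMa, H2-DMb1 and Rfx5, which read lower, as well as before H2-Aa and H2-Eb1, so it did not separate the directions. The windows of 120 bases before H2-Eb1 (chr17:34305747-34305866, plus strand) and H2-Aa (chr17:34287824-34287943, minus strand) hold 2 matches and 1 match, in capitals on whichever strand they fall.
H2-Eb1: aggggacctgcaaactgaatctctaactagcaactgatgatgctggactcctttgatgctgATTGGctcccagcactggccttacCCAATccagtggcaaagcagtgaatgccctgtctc
H2-Aa: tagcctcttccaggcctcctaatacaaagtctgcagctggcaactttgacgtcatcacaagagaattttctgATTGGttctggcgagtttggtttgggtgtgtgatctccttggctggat

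MHC class I and interferon genes did not follow the class II chains. Of 20 detected class I genes, 4 were lower and 0 higher by 2-fold or more, with a median of -0.19. H2-T23, the non-classical Qa-1 chain, read 8.25, 6.82 and 6.56 on the non-irradiated, CDR and FLASH arrays, and its neighbour H2-T22 read 6.88, 6.18 and 5.71. H2-M3 differed by -1.11 and H2-Q7 by -1.04, and class I genes share much of their sequence. Of 46 detected interferon-stimulated genes, 28 read lower by any amount, 2 were lower and 0 higher by 2-fold or more, with a median of -0.10. Shares over all genes outside antigen receptor loci were 32.7% lower by any amount, and 1.44% lower and 0.878% higher by 2-fold or more. Rsad2, the antiviral enzyme viperin, was at least 2.92-fold lower on FLASH, and Ddx58, the RNA sensor RIG-I, differed by -1.15. Cxcl10 was higher by 0.81. Within the p200 family Ifi205 was higher and Ifi209, at 6.14, 5.48 and 4.77, was lower. The core of the interferon-stimulated response element was present on either strand before 16 of 35 matched interferon-stimulated genes (45.7%), against 3.26% of matched detected genes. Among matched genes higher and lower by 2-fold or more on FLASH, the shares were 5.95% and 9.29%. The core lies at the far end of the 120 bases before Rsad2 (chr12:26456453-26456572, minus strand), in capitals.
Rsad2: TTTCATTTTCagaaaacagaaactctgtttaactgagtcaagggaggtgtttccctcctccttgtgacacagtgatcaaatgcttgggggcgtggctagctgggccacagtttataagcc

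Myeloid and mast cell genes moved in both directions. Tpsb2, a mast cell tryptase, had the largest upward difference outside antigen receptor loci: it read 3.89, 5.89 and 6.81, the first under the detection level, and was at least 6.31-fold higher on FLASH. The mast cell protease gene Mcpt4 was at least 1.96-fold higher. Other genes of these cells read lower: Prss34, a basophil protease, read 9.25, 6.53 and 7.87, and Slc18a2, the monoamine transporter of granules, 9.06, 7.78 and 7.65. The 22 detected mast cell and basophil genes had a median of -0.06. Of 5 detected eosinophil genes, Prg2, the major basic protein, read 10.56, 9.47 and 8.97, and the other 4 lay within 2-fold. Summed linear levels of the 9 measured eosinophil genes had a ratio of 0.407 for FLASH over non-irradiated, which Prg2 set for the most part: without it the ratio was 0.84.

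Granulocyte genes also differed both ways. Of 32 detected, 5 were lower and 2 higher by 2-fold or more, against 1.44% and 0.878% of all genes outside antigen receptor loci. The list median was 0.05. The lower ones were Ngp, Camp, Itgam, Retnlg and S100a9, which encode granule, surface and secreted proteins of neutrophils. Ngp read 6.47, 4.81 and 4.79 on the non-irradiated, CDR and FLASH arrays, and S100a9, a calcium-binding alarmin, read 10.12, 7.87 and 8.81. The higher ones were Lcn2, an iron-scavenging lipocalin, at 6.97, 9.15 and 8.40, and the receptor gene Clec5a at 4.83, 6.81 and 6.37; for both the CDR array was the brightest. Among 38 detected monocyte and macrophage genes 3 were higher by 2-fold or more, namely Gpr141b (at least 3.69-fold), Emilin2 at 1.34 and Wfdc21 at 1.12, and Wfdc17 was lower by 2-fold or more.

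Endothelial and stromal genes included some that were high on the FLASH array alone. Of 30 detected, 4 were higher by 2-fold or more, 1 lower by 2-fold or more and 25 within 2-fold, with a median of 0.00. Among all genes outside antigen receptor loci, 0.878% were higher and 1.44% lower by that much. Fabp4, a fatty acid binding protein, read 8.42, 8.59 and 9.61 on the non-irradiated, CDR and FLASH arrays. Sparc, a matrix protein, read 6.96, 6.83 and 8.03, and Plvap, a component of endothelial diaphragms, 5.63, 6.17 and 6.75. Flt1, a VEGF receptor, was at least 1.55-fold higher, and Cdh5, VE-cadherin, and Stab2, a sinusoidal scavenger receptor, were higher by 0.94 and 0.96. Others of the list were lower, with Tie1 at -1.11, Emcn, endomucin, at -0.99 and Eng, endoglin, at -0.54. Tie1, Emcn and Eng are also expressed by stem cells, and the list's summed linear level had a ratio of 1.10 for FLASH over non-irradiated and 0.858 for CDR over non-irradiated. Fabp4 set the FLASH direction of this sum: without it the ratios were 0.97 and 0.828. All 30 detected members lay above the detection level on the FLASH array and 29 did on the non-irradiated array. Whether endothelial cells were in the sort was not tested.

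B cell, antibody-secreting cell and T and NK cell lists had medians of 0.00. Of 20 detected B cell genes all lay within 2-fold, with Cd79b, a chain of the B cell receptor complex, at -0.98 and Cd72 at -0.97. Slamf7, at 1.05, was the 1 of 26 antibody-secreting cell genes past 2-fold, and Jchain, which joins antibody units, read 9.79, 7.65 and 9.37 on the non-irradiated, CDR and FLASH arrays. The FLASH value of Jchain thus lay near the non-irradiated one. The 24 detected T and NK cell genes lay within 2-fold. Summed linear levels had ratios for FLASH over non-irradiated of 0.899 for the B cell list, 1.15 for the antibody-secreting cell list and 1.05 for the T and NK cell list. With the member of largest linear difference left out, these ratios were 0.918 (without Ighm), 1.051 (without Hsp90b1) and 0.962 (without Nkg7).

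The largest downward differences outside antigen receptor loci belonged to genes of mixed function. Myl10, a myosin light chain, read 9.60 on the non-irradiated array and 6.74 on both the CDR and FLASH arrays, a difference of -2.86 (7.24-fold). Apol7e was at least 2.41-fold and Rab6b, a small GTPase of Golgi traffic, at least 2.98-fold lower on FLASH, where both were under the detection level. Clic5, an intracellular chloride channel protein, read 6.65, 4.43 and 4.59, and Lag3, an inhibitory receptor that binds MHC class II, 6.65, 4.98 and 4.77. Prkaa2, a catalytic subunit of AMP-activated kinase, was at least 2.33-fold lower, and Pcdhgb5, a gamma protocadherin, at least 1.38-fold. Bex1, of an X-linked family of small adaptor proteins, read 8.36, 5.58 and 6.55. Of 17 detected Bex, Tceal and related genes, 4 were lower by 2-fold or more, and Bex4, at 5.22, 5.86 and 6.40, was higher by 2-fold or more. The protease genes Klk8 and Ctsf differed by -1.77 and -1.87, Paqr5 by -1.87 and Tmem71 by -1.72, and Bdh2 was at least 2.81-fold lower.

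Upward differences outside the lists included Sfrp4, a secreted Wnt inhibitor, at 4.40, 5.63 and 6.38 on the non-irradiated, CDR and FLASH arrays. Pnp2, a purine phosphorylase, read 4.73, 6.58 and 6.50, and the long non-coding RNA gene Asb17os 4.18, 6.40 and 5.83. Tfb2m, a mitochondrial transcription factor, was at least 2.40-fold higher, Rbm3, a cold-inducible RNA-binding protein, at least 2.53-fold and Tcp10c at least 1.38-fold. Id1, an inhibitor of basic helix-loop-helix factors, was higher by 1.13 on FLASH, and was the 1 of 29 detected TGF-beta, BMP and Id genes past 2-fold. Of 11 detected imprinted growth genes 7 read lower, led by Sgce at -0.90, and none passed 2-fold in either direction. Among 25 detected TNF ligand and receptor genes, Ltb and Tnfrsf18, at -1.03, were lower by 2-fold or more, while Tnf was higher by 0.60.

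Small non-coding RNA genes, named here after their values were seen, differed past 2-fold in both directions. Of 88 detected small nucleolar and Cajal body RNA genes 6 were higher and 5 lower by 2-fold or more, with a median of 0.00. Snord32a read 9.34, 7.36 and 7.59 on the non-irradiated, CDR and FLASH arrays, and Snord89 8.77, 6.69 and 7.08. The Snora73a and Snora73b genes, consecutive on chromosome 4, were higher by 1.19 and 1.27, and Snora16a and Snora44, also consecutive on that chromosome, differed by -1.14 and -1.66. The microRNA genes had 125 detected members, 1 of them higher and 1 lower by 2-fold or more. Those counts did not exceed the shares over all genes outside antigen receptor loci, 0.878% higher and 1.44% lower. The lower microRNA gene was Mir20a of the Mir17 cluster, a polycistron that promotes proliferation and survival of blood progenitors. Mir20a read 6.59, 5.03 and 5.06 on the 3 arrays, Mir17 6.51, 6.13 and 5.78, Mir19b-1 5.66, 4.51 and 4.91, and Mir18 5.93, 5.93 and 5.83. Mir19a, with the same value on the FLASH and non-irradiated arrays, and the host gene Mir17hg, at 0.19, were not detected in this comparison. The mature sequences of the detected members, from RefSeq (GRCm38.p6, chromosome 14, plus strand), are given with the seed, bases 2 to 8, in capitals, since the seed sets the targets. Those from Mir17 and Mir20a share a seed, so the genes with FLASH differences of -0.73 and -1.53 belong to 1 seed family. The probe sets were named for the genes, and mature and precursor RNA cannot be told apart here.
mmu-miR-17-5p: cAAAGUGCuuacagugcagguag
mmu-miR-20a-5p: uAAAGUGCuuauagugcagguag
mmu-miR-18a-5p: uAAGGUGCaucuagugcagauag
mmu-miR-19b-3p: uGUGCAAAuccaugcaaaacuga

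Antigen receptor genes had the widest differences and are kept apart, since their segments are near copies and their transcripts depend on which rearranged cells a sample holds. Of 138 detected antibody variable, diversity and joining segments (191 measured), 39 were higher and 39 lower by 2-fold or more, 56.5% in all, against 0.878% and 1.44% outside these loci. Their median was -0.00. Over the 126 segments detected in that comparison, the CDR array had 6 higher and 86 lower by 2-fold or more than the non-irradiated array, with a median of -1.77. Constant regions of the main classes read alike on the FLASH and non-irradiated arrays: Igkc, the kappa light chain, read 12.55, 11.82 and 12.46 on the non-irradiated, CDR and FLASH arrays, Ighm 11.83, 10.49 and 11.64, and Igha 11.31, 9.95 and 11.21. The IgG constant regions Ighg2c and Ighg2b differed: Ighg2c, at 8.84, 4.34 and 3.61, was at least 24.7-fold lower and Ighg2b, at 6.78, 6.45 and 3.90, at least 5.91-fold lower on FLASH.

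Values of single segments are given here, and the repertoire of rearranged receptors was not itself measured. Ighv1-9 read 8.98, 2.18 and 2.70 on the non-irradiated, CDR and FLASH arrays, at least 27.1-fold lower on FLASH, and Ighv10-3 was at least 17.6-fold lower. Ighv2-6 read 4.77, 3.75 and 9.45, high on the FLASH array alone, and Ighv12-3, at 4.10, 7.66 and 8.16, was high on both irradiated arrays. Among kappa segments Igkv6-13 read 5.54, 3.76 and 9.71 and Igkv4-53 was at least 11.7-fold higher on FLASH, while Igkv10-96 read 11.02, 2.27 and 6.21. Of 12 variable families with at least 4 detected segments, 7 held members past 2-fold in both directions. The Igkv4 family had 13 of 21 higher and 3 lower by 2-fold or more, Ighv1 had 5 and 10 of 31, and all 4 of Ighv9 were lower by 2-fold or more. Of 34 detected T cell receptor segments, 32 lay within 2-fold; Trav7-3 was higher by 1.04 and Trgj1 was at least 1.06-fold lower. The T cell receptor constant regions Trbc1 and Trgc2 differed by -1.86 and -1.67.

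**Figure D4:**
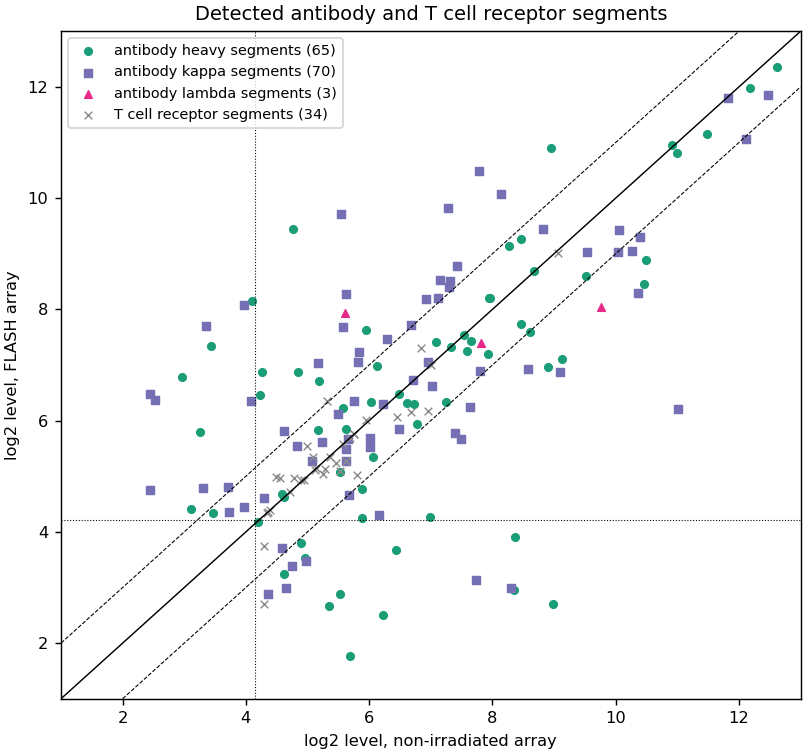
Log2 level on the FLASH array (y axis) against the non-irradiated array (x axis) for 138 antibody and 34 T cell receptor segments detected on either array. The solid line marks equal values, dashed lines 2-fold and dotted lines the detection levels of 4.15 and 4.22; kappa and heavy segments scatter widely to both sides, and T cell receptor segments stay near the solid line.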

How the data were processed

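The deposited table holds, per probe set and array, a value that the authors processed; the scale was taken as log2 from its range of values, because the log base is not stated. The software was Partek, per the submitters' processing notes; the sources used here do not give its version or how background, summarising and normalisation were handled. The assay was Affymetrix whole transcript sense target labelling of total RNA, per the labels' protocols. Values were used as deposited, 1 probe set per gene, and differences are between log2 values. Symbols came from the platform annotation, and all 23185 equalled RefSeq symbols. The number of arrays, 1 per group, limits the precision of every value.

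Members, lists and motifs were chosen with earlier results of these data known, and no list median is independent support. Genes named are the 25 largest differences per direction among detected genes (without gene models, pseudogenes, histone, small RNA and receptor genes), every detected list member past 2-fold, up to 6 further members per list and direction, 10 fixed markers, and 5 segments per locus and direction; others are said to be chosen afterwards. Recounts used cyclic loess or quantile normalisation (limma 3.58.1, R 4.3.3), median centring, an offset of 32, no filter, a stricter filter at the 99th percentile of receptor genes, dim values raised to the detection level, list means, all measured members, and fold thresholds of 1.5 and 3. Sums without 1 gene, and counts past 4-fold at the bound, were added after seeing the data. The code (Python 3.11.15 with pandas 2.3.3 and numpy 2.4.6; plots by matplotlib 3.10.9) was tested on simulated data.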

Additional observations from a re-analysis of the deposited data

Results flagged for a closer look

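Results were drawn out here where the FLASH and CDR differences from the shared non-irradiated array pointed in opposite directions, with at least 2-fold on FLASH and 1.5-fold on CDR, or where a signal lay in probe sets that the comparisons did not use. The antibody heavy chain segment Ighv2-6 was higher on FLASH by 4.68 and lower on CDR, at -1.02. The kappa segment Igkv6-13 was higher on FLASH by 4.18 and lower on CDR, at -1.77. Some other segments met these thresholds by deposited values but lay under the detection level on both the non-irradiated and CDR arrays. Examples are Ighv14-4, at 3.82 on FLASH and -1.08 on CDR, and Igkv4-53, at 4.35 and -0.65. No difference between FLASH and CDR was tested, since each had 1 array. Of the 2021 probe sets without a gene symbol 1109 were detected, and 13 of these were higher by 2-fold or more on FLASH (1.17%) and 23 lower (2.07%), with differences from -2.49 to 2.41.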

How the results depend on the processing

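Including antigen receptor genes, 155 detected genes were higher and 233 lower by 2-fold or more on FLASH. Higher genes numbered 78 and lower genes 101 with an offset of 32 before the log, 477 and 704 at 1.5-fold, and 59 and 74 at 3-fold, and 101 higher genes were protein coding. Median centring, quantile normalisation, cyclic loess, no filter, the stricter filter and raised dim values gave counts within 1.5 times these. Median centring moved the median of all genes outside antigen receptor loci by 0.02, and no called gene named in the text changed direction under any of these settings. Of 131 such genes, 54 came under 2-fold with the offset, 8 with raised dim values and 4 each with median centring and quantile normalisation. Of 48 list medians, those of cytokine receptors (0.00 with median centring), imprinted growth genes (0.05 with the stricter filter) and MHC class II genes (-0.02 with the stricter filter) turned sign, and gamma protocadherins had no member above that filter. List means in place of medians turned 4 further signs: granulocyte (0.05 to -0.02), mast cell and basophil (-0.06 to 0.02), p200 family (-0.11 to 0.14) and apolipoprotein L genes (0.30 to -0.48). They moved 8 lists, type 1 dendritic cell genes from 0.24 to 0.71 and MHC class II genes from 0.01 to 0.21 among them. Counting all measured members moved 3, the lymphoid progenitor list from -0.42 to -0.19 among them, and the offset moved 2, erythroid genes from 0.64 to 0.43 among them. No paired analysis was possible because each group had 1 array, and for the same reason no array could be left out. Ratios of dim genes depend on the detection level, and near-identical genes may share probes.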

Other observations

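Several cytokine genes outside the lists, chosen after their values were seen, read lower on the FLASH array. Il15, which sustains natural killer and memory T cells, read 7.82, 6.48 and 6.31 on the non-irradiated, CDR and FLASH arrays. Il18, an inflammasome cytokine, read 6.66, 5.08 and 5.40, and Ebi3, a subunit shared by interleukin dimers, 8.27, 7.22 and 6.93. Among kinases and quiescence-associated genes, Sik1, a salt-inducible kinase, read 9.86, 8.78 and 8.53, Pik3ip1, an inhibitor of PI3 kinase, 7.68, 6.99 and 6.52, and Mxd4, an antagonist of MYC, 8.22, 7.14 and 7.21. All 6 were lower on both irradiated arrays than on the non-irradiated one.

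A few genes that read higher were chosen in the same way, and Ercc6l, Gen1 and Sphk1 stand for no group. Ercc6l, a helicase of anaphase bridges, read 6.76, 7.67 and 8.08 on those arrays, and Gen1, a Holliday junction resolvase, read 6.29, 7.64 and 7.59. Sphk1, which makes sphingosine 1-phosphate, read 5.98, 7.51 and 7.54. Of 56 detected cytosolic ribosomal protein genes, Rps15, Rps2, Rpl9 and Rpl13 were higher by 2-fold or more, with Rpl13 at 7.19, 8.22 and 8.22. The share higher by that much over all genes outside antigen receptor loci was 0.878%. The potassium channel genes Kcnj8 and Abcc9, consecutive on chromosome 6, which encode partner subunits, were higher by 1.08 and 1.01 on FLASH, while on CDR they differed by 0.42 and 0.07. Next to them in the gene order, Ldhb differed by -1.85 on FLASH.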
